A study of Mus musculus with 17 samples.

Results

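Astrocytes and the endothelial cells of brain vessels come from different germ layers and lie on either side of the vascular basement membrane. The genes described here are those that both types expressed at a level apart from every other purified cell type of the mouse cerebral cortex. A gene was counted as shared when all 4 astrocyte and endothelial libraries lay above, or all below, the 10 libraries of neurons, oligodendrocyte precursor cells (OPC), newly formed oligodendrocytes (NFO), myelinating oligodendrocytes (MO) and microglia. Of 22462 genes in the files, 14011 reached 1 FPKM in at least 2 libraries and were tested, and 958 of these were shared. FPKM is a read density per transcript length and library size, and values under 0.1 are listed as 0.1. Among the shared genes, 520 were higher in both types, which is 3.71% of genes tested, and 438 were lower, which is 3.13%. The lower count depended on the scaling of the libraries, with 527 higher and 833 lower under median-of-ratios scaling and 526 higher and 301 lower with libraries set to a common sum. A stricter test asked that each of both types differ from each of the other 5 beyond the spread between libraries. It was passed by 137 higher genes (0.978% of genes tested) and 64 lower genes (0.457%). The same scalings gave 138 higher and 108 lower, and 156 higher and 33 lower.

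The study sequenced polyA RNA from the cerebral cortex of mice whose strain the labels give as FVN/Swiss, with 100 ng of input RNA. There were 2 libraries for each of the 7 purified types and 3 of whole cortex (WC). No group carries a mutation or a treatment by its labels. The labels give no age, sort marker, purification method or number of animals, so differences in these cannot be told apart from cell type, and p-values measure the spread between libraries, which may be technical.

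Astrocytes wrap vessels with their endfeet, and endothelial cells joined by tight junctions form the blood-brain barrier. Both attach to the basement membrane between them through adhesion complexes linked to actin. In cells under tension or spread on stiff matrix, the co-activators Yap1 and Wwtr1 (TAZ) enter the nucleus and act through TEAD factors on genes such as Cyr61. Notch receptors act through the DNA-binding factor CSL and the Hes and Hey repressors, and BMP ligands act through SMAD factors on the Id genes. Neurons and the oligodendrocyte lineage lay down long processes that depend on microtubules and motor proteins.

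The promoters of shared genes were searched for the core TEAD site GGAATG on both strands, from 250 bases before to 50 after the start of transcription, in RefSeq promoters of build GRCm38.p6. Of the 137 higher genes that passed, 104 had a promoter in the table, and 21 of their 131 promoters (16.0%) held the motif. The share was 12.2% over promoters of all genes tested and 14.7% over all 32851 promoters of the table. Shown here are 7 promoters of higher genes, picked by name from those with the motif between 210 and 61 bases before the start. Promoters of other passed higher genes, such as Cpt1a, Erbb2, Lxn, Papss2 and Tmem51, also held the motif in this stretch and are not shown. They run 5′ to 3′ along the gene's strand, with the motif or its reverse complement in capitals.
Cyr61 (RefSeq Ccn1), chr3:145650046-145650195, minus strand: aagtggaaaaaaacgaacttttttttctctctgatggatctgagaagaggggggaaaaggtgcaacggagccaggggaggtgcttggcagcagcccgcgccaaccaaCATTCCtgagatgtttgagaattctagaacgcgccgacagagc
Jub (RefSeq Ajuba), chr14:54577722-54577871, minus strand: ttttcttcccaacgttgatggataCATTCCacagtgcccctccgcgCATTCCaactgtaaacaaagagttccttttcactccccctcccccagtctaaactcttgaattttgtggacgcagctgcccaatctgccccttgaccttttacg
Yap1, chr9:8004657-8004806, minus strand: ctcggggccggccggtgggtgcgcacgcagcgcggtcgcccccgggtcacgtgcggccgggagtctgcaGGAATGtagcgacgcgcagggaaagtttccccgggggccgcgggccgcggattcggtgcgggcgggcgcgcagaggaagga
Wwtr1, chr3:57575971-57576120, minus strand: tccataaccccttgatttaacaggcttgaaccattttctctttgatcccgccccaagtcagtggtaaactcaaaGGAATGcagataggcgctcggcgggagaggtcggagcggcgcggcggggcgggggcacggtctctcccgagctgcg
Vcl, chr14:20929188-20929337, plus strand: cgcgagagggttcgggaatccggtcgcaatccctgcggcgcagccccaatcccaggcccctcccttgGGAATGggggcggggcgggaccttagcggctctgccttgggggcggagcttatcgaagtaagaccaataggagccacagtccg
Id3, chr4:136143612-136143761, plus strand: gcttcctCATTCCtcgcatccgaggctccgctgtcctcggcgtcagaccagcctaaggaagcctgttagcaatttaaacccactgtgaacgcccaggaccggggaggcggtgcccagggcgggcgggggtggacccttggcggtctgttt
Slco1c1, chr6:141524144-141524293, plus strand: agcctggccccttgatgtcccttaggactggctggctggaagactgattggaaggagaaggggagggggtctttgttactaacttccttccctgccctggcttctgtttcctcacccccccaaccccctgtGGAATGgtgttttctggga
The promoter of Jub holds the motif at 2 places in this stretch and the other 6 promoters hold it at 1 place. A match describes these letters only and is no evidence that a factor binds there. In a window starting 100 bases before the start, the share over the promoters of the passed higher genes was 7.6%, against 5.0% over genes tested and 6.9% over all promoters.

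The other motifs were searched in the same windows on both strands, and matches may overlap. The CSL motif GTGGGAA stood in 9.9% of promoters of the passed higher genes, against 6.2% over genes tested and 6.4% over all promoters. The ETS motif CCGGAAG stood in 2.3%, against 15.5% over genes tested and 8.9% over all promoters. The SMAD motif GGCGCC stood in 19.8%, against 20.8% over genes tested and 11.9% over all promoters. The E-box CAGCTG stood in 13.7% against 15.7% over genes tested, the NFI site TTGGCA in 11.5% against 11.3%, and the AP-1 site TGANTCA in 4.6% against 5.1%. The FOX site TGTTTAC, the SOX site ACAATGG and the CRE site TGACGTC each stood in 2.3%, against 2.5%, 2.1% and 5.1%. Only the ETS share thus lay more than 10 points from that of the genes tested. Among promoters of the 64 passed lower genes, 50 of which had one in the table, the TEAD motif stood in 11.8% of 76 promoters. The ETS motif stood in 7.9% of these promoters, and in 9.8% over promoters of all 520 shared higher genes. An ETS share below that of the genes tested was thus not particular to the passed higher genes. No test was made of these shares.

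The shared higher genes with the widest separation were led by a thyroid hormone carrier, a lipase inhibitor and genes of adhesion, collagen modification and YAP activity. For the 14 with the largest gap between the lowest of the 4 libraries and the highest of the other 10, the gap ran from 2.30 to 3.98 on the log2(FPKM + 1) scale. Over all 137 genes the median gap was 1.06, with a range of 0.276 to 3.98, and it reached 1 in 71 of them. In the comparisons below, the adjusted p is the largest of 10 one-sided limma p-values, each of both types against each of the 5 others, adjusted over all genes tested. The log2 difference is the mean of both types minus the mean of the 5 others, with its standard error.

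Slco1c1, which carries thyroxine across cell membranes, read 498 and 318 FPKM in the astrocyte libraries and 1258 and 1277 FPKM in the endothelial libraries. The other 10 libraries ran from 0.209 FPKM in an NFO library through a median of 5.69 to 19.3 in an OPC library. All 4 libraries of the pair thus lay far above every other one, and the 3 WC libraries lay between, at 96.8, 109 and 129 FPKM. The log2 difference was 7.08 ± 0.27 (SE), adjusted p = 1.62e-05. Angptl4, an inhibitor of lipoprotein lipase, read 54.1 and 49.6 FPKM in astrocytes and 144 and 153 FPKM in endothelial cells. Its highest value among the other 10 libraries was 3.74 FPKM in a neuron library (log2 difference 5.10 ± 0.12, adjusted p = 1.58e-07). Ccdc141 read 23.6 and 17.8 FPKM in astrocytes and 51.4 and 50.5 FPKM in endothelial cells. None of the other 10 libraries passed 0.762 FPKM, and their median was at the 0.1 limit (log2 difference 4.75 ± 0.13, adjusted p = 1.58e-07). For these 3 genes the endothelial libraries were the higher of both types.

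Bhlhe40, a transcriptional repressor of the basic helix-loop-helix family, had the reverse order. It read 409 and 371 FPKM in astrocytes and 168 and 154 FPKM in endothelial cells, with 2.42, 10.2 and 18.8 FPKM as lowest, median and highest of the other 10 (log2 difference 4.74 ± 0.13, adjusted p = 5.34e-07). A pair of collagen-modifying enzymes of the endoplasmic reticulum stood in the group. The prolyl isomerase Fkbp10 read 30.2 and 24.5 FPKM in astrocytes, 58.3 and 63.1 FPKM in endothelial cells and at most 2.28 FPKM elsewhere (adjusted p = 1.58e-07). The collagen galactosyltransferase Glt25d2 read 23.5 and 22.3 FPKM in astrocytes, 21.5 and 21.8 FPKM in endothelial cells and at most 3.0 FPKM elsewhere (adjusted p = 5.34e-07). Its level was thus nearly equal in both types, with an astrocyte minus endothelial log2 difference of 0.08 ± 0.17.

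Fgd6, a guanine nucleotide exchange factor of the FGD family, read 16.1 and 13.6 FPKM in astrocytes and 11.2 and 11.1 FPKM in endothelial cells. It stayed under 1 FPKM in the other 10 libraries, whose highest was 0.933 in an OPC library (log2 difference 3.25 ± 0.08, adjusted p = 1.34e-07). Tmem51 read 19.1 and 16.4 FPKM in astrocytes, 20.7 and 23.2 FPKM in endothelial cells and at most 1.97 FPKM elsewhere (adjusted p = 1.61e-06). The remaining genes with no list of their own were higher by similar margins. The phosphodiesterase Smpdl3a read 97.7 and 96.0 FPKM in astrocytes, 117 and 121 FPKM in endothelial cells and at most 18.4 FPKM elsewhere (adjusted p = 1.61e-06). The carboxypeptidase inhibitor Lxn read 98.4 and 94.3 FPKM in astrocytes, 61.8 and 56.6 FPKM in endothelial cells and at most 10.7 FPKM elsewhere (adjusted p = 7.41e-05).

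**Figure D1:**
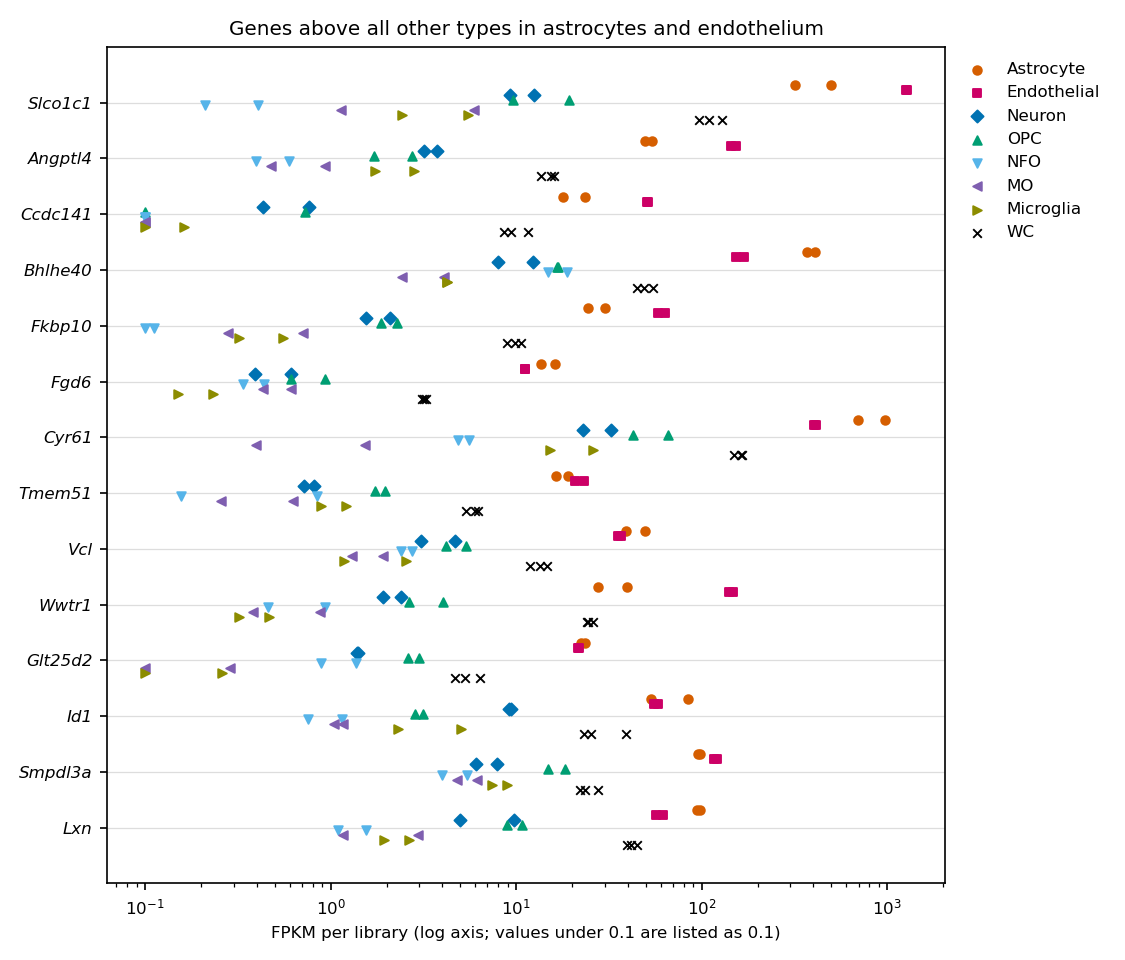
FPKM per library, on a log axis, of the 14 shared higher genes with the largest gap, 1 row per gene and 1 marker per library, coloured by cell type. In every row the 4 astrocyte and endothelial markers lie to the right of the 10 markers of the other purified types, and the WC crosses lie mostly between.

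Of the 25 genes tested in the list of Hippo pathway members and YAP targets, 9 were shared and higher, 6 of them passed the stricter test and 0 were lower. By the mean contrast (adjusted p under 0.05 and a log2 difference of at least 1) 14 were higher and 0 lower. That contrast called 14.8% of all genes tested higher and 11.5% lower. For this list and those below, 3.71% of all genes tested were shared and higher and 0.978% passed as higher. As lower, 3.13% were shared and 0.457% passed. The median log2 difference of the list was 1.29, against 0.10 over all genes tested. This count of 6 stayed at 6 or 7 under both other scalings.

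Both co-activators were in the set. Yap1 read 13.6 and 16.5 FPKM in astrocytes and 24.6 and 21.9 FPKM in endothelial cells, and 0.170, 0.509 and 2.02 FPKM as lowest, median and highest of the other 10 libraries (log2 difference 3.54 ± 0.10, adjusted p = 5.34e-07). Wwtr1 read 27.5 and 39.4 FPKM in astrocytes and 147 and 140 FPKM in endothelial cells, and at most 4.03 FPKM in an OPC library (log2 difference 5.0 ± 0.13, adjusted p = 1.43e-06). The 4 libraries of the pair lay above all others for both genes, and Wwtr1 was the more uneven, higher in endothelial cells by 2.09 ± 0.22 on the log2 scale (adjusted p = 1.06e-06). Tead2, a DNA-binding partner of both, read 9.16 and 14.5 FPKM in astrocytes, 23.6 and 26.7 FPKM in endothelial cells and at most 1.66 FPKM elsewhere (adjusted p = 2.93e-06).

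Cyr61, a secreted matrix protein and YAP target, was the most abundant member. It read 696 and 974 FPKM in astrocytes and 412 and 400 FPKM in endothelial cells, and 0.394, 19.0 and 66.2 FPKM as lowest, median and highest of the other 10 (log2 difference 5.48 ± 0.18, adjusted p = 4.26e-05). The scaffold Amotl1, a binding partner of YAP, read 10.5 and 10.9 FPKM in astrocytes, 14.3 and 14.2 FPKM in endothelial cells and at most 4.39 FPKM elsewhere (adjusted p = 0.00365). Jub (Ajuba), a LIM-domain protein of adhesion sites, read 1.79 and 2.65 FPKM in astrocytes, 4.57 and 5.76 FPKM in endothelial cells and at most 0.415 FPKM elsewhere (adjusted p = 0.00017). The other 3 shared members did not pass the stricter test. Ctgf, the close relative of Cyr61, read 28.1 and 45.6 FPKM in astrocytes and 39.3 and 38.1 FPKM in endothelial cells, but 23.0 FPKM in a neuron library (adjusted p = 0.351). Sav1, a scaffold of the Hippo kinases, had adjusted p = 0.0577, and Amot, which read 20.5 and 21.8 FPKM in astrocytes and 4.34 and 3.95 FPKM in endothelial cells, had adjusted p = 0.293.

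Notch signalling gave 5 shared higher genes of 22 tested, 3 of which passed, and 14 higher and 2 lower by the mean contrast, with a median log2 difference of 1.42. Under scaling to a common sum of FPKM, 1 of the 22 passed. Hes1, the repressor induced by Notch, read 135 and 125 FPKM in astrocytes and 104 and 110 FPKM in endothelial cells. The other 10 libraries had a median of 3.04 FPKM and reached 26.3 FPKM in a microglia library (log2 difference 4.75 ± 0.19, adjusted p = 0.000549). It was thus near even in both types, with a difference of 0.27 ± 0.31. Hey1, a related repressor, read 69.6 and 60.6 FPKM in astrocytes and 82.2 and 83.1 FPKM in endothelial cells but 47.7 FPKM in an OPC library, and it did not pass (adjusted p = 0.448). Heyl, the third of these repressors, read 4.64 and 3.90 FPKM in astrocytes, 2.53 and 3.24 FPKM in endothelial cells and at most 1.5 FPKM elsewhere (adjusted p = 0.0132). The call of Heyl was lost without the first OPC library (adjusted p = 0.162), without the second endothelial library (0.198), with a pseudocount of 0.1 (0.0681) and with the common sum (0.0731). The receptor Notch3 is described with the mural genes.

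The BMP list of 23 genes had 3 shared higher members, 2 of which passed, and 10 higher and 1 lower by the mean contrast. The median was 0.89. Both that passed encode Id proteins, which hold basic helix-loop-helix factors off DNA. Id1 read 53.0 and 84.5 FPKM in astrocytes and 55.4 and 58.0 FPKM in endothelial cells and at most 9.35 FPKM elsewhere (log2 difference 4.06 ± 0.17, adjusted p = 0.000113). Id3 read 235 and 196 FPKM in astrocytes and 90.1 and 107 FPKM in endothelial cells and at most 28.9 FPKM in an OPC library (log2 difference 3.78 ± 0.18, adjusted p = 0.00125). For both genes the 4 libraries stood clear of the other 10. Tgfb2, a TGF-beta ligand, was the 1 gene of 17 in the TGF-beta list that passed. It read 25.1 and 30.1 FPKM in astrocytes, 10.2 and 10.4 FPKM in endothelial cells and at most 4.01 FPKM elsewhere (adjusted p = 0.000119).

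Of 30 genes tested in the Wnt list, 8 were shared and higher, 4 passed, and 18 were higher and 1 lower by the mean contrast, with a median of 1.25. All 4 that passed were far higher in endothelial cells. Fzd4, the receptor for Norrin in vessels, read 7.71 and 5.83 FPKM in astrocytes and 36.7 and 33.0 FPKM in endothelial cells and at most 2.56 FPKM elsewhere (adjusted p = 0.000486). Fzd6, another Frizzled receptor, read 6.55 and 5.12 FPKM in astrocytes and 112 and 108 FPKM in endothelial cells and at most 1.40 FPKM elsewhere (adjusted p = 0.000124). The Wnt deacylase Notum read 3.08 and 4.05 FPKM in astrocytes and 51.7 and 52.0 FPKM in endothelial cells and at most 0.473 FPKM elsewhere (adjusted p = 2.38e-05). The nuclear factor Lef1, which partners beta-catenin, read 3.11 and 2.35 FPKM in astrocytes and 18.9 and 16.6 FPKM in endothelial cells and at most 0.463 FPKM elsewhere (adjusted p = 3.00e-05). The astrocyte level of these genes was thus low but above each of the 10 other libraries.

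**Figure D2:**
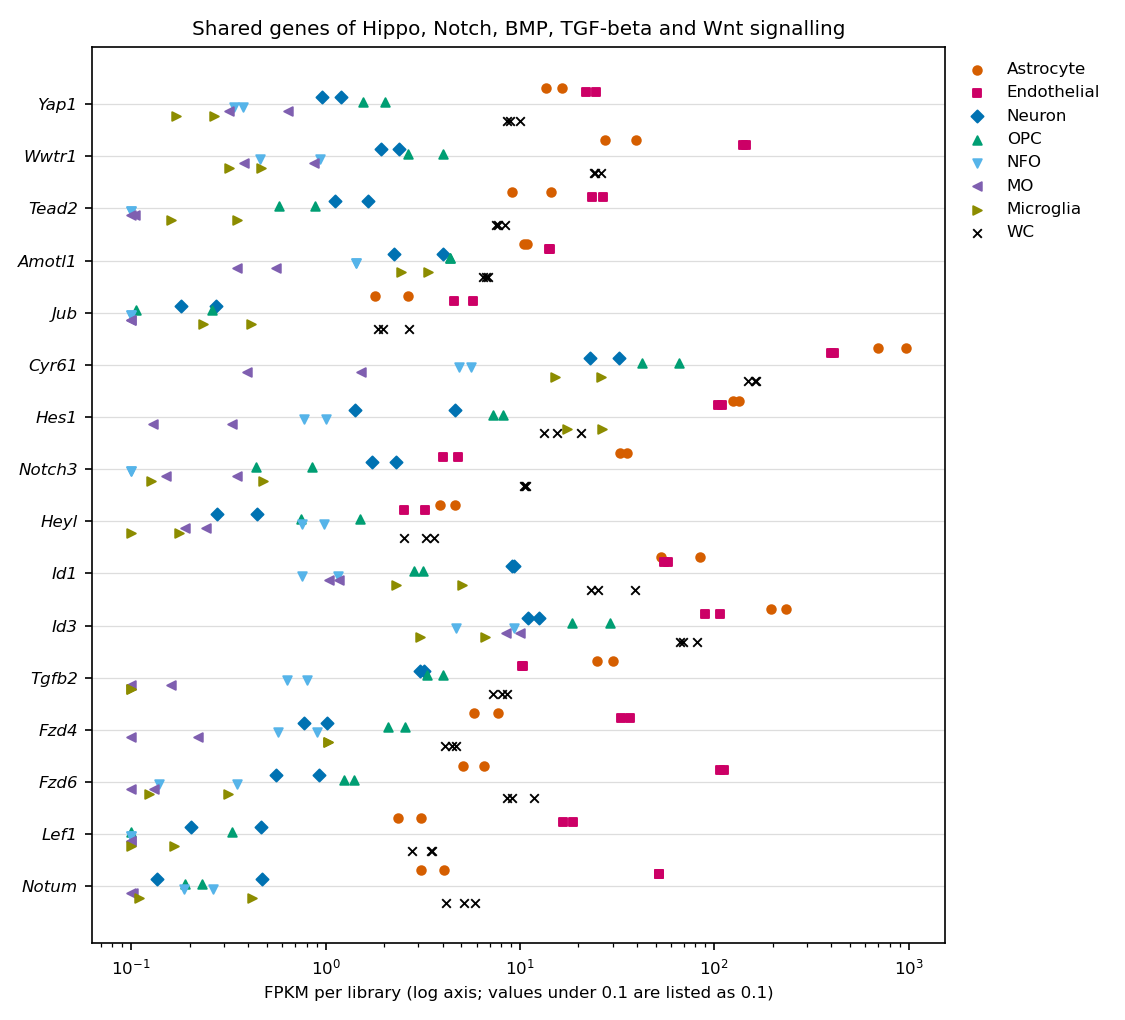
FPKM per library, on a log axis, of the 16 shared higher genes of the Hippo, Notch, BMP, TGF-beta and Wnt lists that passed the stricter test, 1 marker per library. Hes1 and Id1 lie at like levels in astrocytes and endothelial cells, Notch3 lies higher in astrocytes, and Fzd6 and Notum lie higher in endothelial cells.

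The adhesion side of the set was led by Vcl (vinculin), which links integrin adhesions to actin. It read 49.7 and 39.0 FPKM in astrocytes and 36.7 and 35.4 FPKM in endothelial cells, and 1.18, 2.65 and 5.39 FPKM as lowest, median and highest of the other 10 (log2 difference 3.46 ± 0.14, adjusted p = 8.19e-06). Of 43 genes tested in the list of membrane-cortex and actin-binding proteins, 10 were shared and higher, 3 passed, and 29 were higher and 0 lower by the mean contrast, with a median of 1.49. The intermediate filament gene Nes (nestin) read 7.62 and 14.9 FPKM in astrocytes and 45.1 and 42.0 FPKM in endothelial cells and at most 3.33 FPKM elsewhere (adjusted p = 0.00113). The actin-binding gene Tagln, which smooth muscle also expresses, read 2.96 and 3.98 FPKM in astrocytes, 2.77 and 3.60 FPKM in endothelial cells and at most 1.02 FPKM elsewhere (adjusted p = 0.00307). Its call was lost without the second endothelial library (adjusted p = 0.0651) and with a pseudocount of 0.1 (0.0627). Vim (vimentin) had no overlap, at 41.7 and 83.4 FPKM in astrocytes and 615 and 547 FPKM in endothelial cells against at most 27.1 FPKM elsewhere, but did not pass (adjusted p = 0.308).

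Of 29 basement membrane and matrix genes tested, 8 were shared and higher, 3 passed, and 25 were higher and 0 lower by the mean contrast, with a median of 2.39. All 3 that passed are laminin chains, the building blocks of the basement membrane. Lama5 read 6.2 and 7.76 FPKM in astrocytes, 16.4 and 14.4 FPKM in endothelial cells and at most 1.32 FPKM elsewhere (adjusted p = 1.61e-06). Lamb2 read 28.5 and 30.8 FPKM in astrocytes, 56.2 and 51.1 FPKM in endothelial cells and at most 14.9 FPKM in a microglia library (adjusted p = 0.00114; 0.244 with median-of-ratios scaling). Lama4, the chain typical of endothelial basement membranes, read 6.05 and 7.19 FPKM in astrocytes and 116 and 109 FPKM in endothelial cells and at most 3.70 FPKM elsewhere (adjusted p = 0.0208). Its call was lost without the second astrocyte library (adjusted p = 0.291), the first OPC library (0.0901) or the second OPC library (0.0898), with a pseudocount of 0.1 (0.247) and with only the 7 types in the fit (0.0622). Agrn (agrin), a heparan sulphate proteoglycan, read 107 and 121 FPKM in astrocytes and 189 and 181 FPKM in endothelial cells against at most 61.2 FPKM in a neuron library, with adjusted p = 0.0687. Serpinh1, a chaperone for collagen, passed, at 80.8 and 77.9 FPKM in astrocytes, 463 and 502 FPKM in endothelial cells and at most 19.9 FPKM elsewhere (adjusted p = 0.000417). It was the 1 gene that passed of 24 tested in the list of complement, coagulation and protease inhibitors. Of 31 integrin and dystrophin complex genes, 2 were shared and 0 passed, and of 10 caveolar genes 1 was shared and 0 passed. Over all genes tested, 3.71% were shared and higher and 0.978% passed.

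Among 29 connexins and junction genes, 6 were shared and higher and 1 passed. Gjc1 (connexin 45), a gap junction channel, read 6.35 and 9.13 FPKM in astrocytes, 26.4 and 29.7 FPKM in endothelial cells and at most 2.38 FPKM elsewhere (adjusted p = 0.000417). The astrocyte connexin Gja1 had no overlap either, at 572 and 425 FPKM in astrocytes and 65.6 and 62.1 FPKM in endothelial cells, but an OPC library reached 55.2 FPKM (adjusted p = 1.00). Tjp1 (ZO-1), the scaffold of tight junctions, read 35.5 and 30.5 FPKM in astrocytes and 67.4 and 64.0 FPKM in endothelial cells against at most 23.8 FPKM elsewhere, with adjusted p = 0.333.

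Transport across the barrier gave 11 shared higher genes of 32 tested in the list of efflux, organic anion and thyroid hormone carriers. Of these, 3 passed, and 23 of the 32 were higher and 3 lower by the mean contrast, with a median of 2.49. Beside Slco1c1, the glutamine carrier Slc38a3 read 519 and 373 FPKM in astrocytes and 328 and 334 FPKM in endothelial cells against at most 121 FPKM in an OPC library (adjusted p = 0.0105). The call of Slc38a3 was lost without the first OPC library (adjusted p = 0.111) or without the first or second endothelial library (0.082 and 0.0897). Slco1a5, an organic anion carrier, read 0.641 and 1.31 FPKM in astrocytes, 3.08 and 2.76 FPKM in endothelial cells and at most 0.105 FPKM elsewhere (adjusted p = 0.00102). It is a close copy of Slco1a4, so the authors' counting may have split reads between both. Abcb1a, the efflux pump of the barrier, read 1.37 and 0.979 FPKM in astrocytes and 137 and 126 FPKM in endothelial cells against at most 0.694 FPKM elsewhere. It had no overlap, but its astrocyte level was low and it did not pass (adjusted p = 0.136).

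In metabolism the shared genes included fatty acid and detoxification enzymes. Of 41 fatty acid and ketone oxidation genes tested, 9 were shared and higher and 2 passed, and by the mean contrast 12 were higher and 5 lower, with a median of 0.62. Acadl, the long-chain acyl-CoA dehydrogenase, read 51.7 and 55.4 FPKM in astrocytes, 58.2 and 58.1 FPKM in endothelial cells and at most 18.6 FPKM in a microglia library (log2 difference 2.39 ± 0.12, adjusted p = 7.84e-05). Cpt1a, the other that passed, is described with the calls of small margin. Outside this list, Pdk4, a kinase that inhibits pyruvate dehydrogenase, read 63.1 and 64.3 FPKM in astrocytes, 13.7 and 15.8 FPKM in endothelial cells and at most 2.28 FPKM elsewhere (adjusted p = 4.44e-05). Acadl and Pdk4 both stood apart from every other library, Acadl near even between both types and Pdk4 higher in astrocytes by 2.04 ± 0.25 on the log2 scale. Of 45 xenobiotic and oxidant genes, 4 were shared and 3 passed, and the glutathione transferase Mgst1 was the widest, at 15.3 and 22.2 FPKM in astrocytes, 10.8 and 13.4 FPKM in endothelial cells and at most 1.92 FPKM elsewhere (adjusted p = 5.02e-05). Of 15 metal-handling genes, 3 were shared and 1 passed, the copper-dependent ferroxidase Heph, at 2.51 and 3.27 FPKM in astrocytes, 6.42 and 6.45 FPKM in endothelial cells and at most 0.899 FPKM elsewhere (adjusted p = 0.000113).

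Of 36 growth factor receptors tested, 13 were shared and higher, 5 passed, and 21 were higher and 4 lower by the mean contrast, with a median of 1.43. Osmr, the oncostatin M receptor, read 4.64 and 3.70 FPKM in astrocytes, 17.4 and 18.3 FPKM in endothelial cells and at most 0.266 FPKM elsewhere (adjusted p = 5.34e-07). Erbb2, a receptor tyrosine kinase that pairs with other ErbB receptors, read 7.55 and 8.86 FPKM in astrocytes, 2.43 and 2.50 FPKM in endothelial cells and at most 0.505 FPKM elsewhere (adjusted p = 4.13e-06). Lpar4, a receptor for lysophosphatidic acid, read 2.71 and 4.29 FPKM in astrocytes, 5.52 and 5.72 FPKM in endothelial cells and at most 1.90 FPKM elsewhere (adjusted p = 0.0297). The list thus held receptors of several unrelated ligands. Osmr was called higher in endothelial cells and Erbb2 in astrocytes, while Lpar4 was called in neither direction, with an astrocyte minus endothelial difference of -0.58 ± 0.21.

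Of 63 transcription factors of glia and vessels, 10 were shared and higher, 1 was shared and lower, and 4 passed as higher. Foxo1, a forkhead factor held out of the nucleus by insulin signalling, read 17.2 and 15.3 FPKM in astrocytes, 15.6 and 14.1 FPKM in endothelial cells and at most 3.55 FPKM elsewhere (log2 difference 2.30 ± 0.10, adjusted p = 8.19e-06). Its level differed little between both types, by 0.12 ± 0.18. Sox7, a factor of vessel development, read 10.4 and 9.13 FPKM in astrocytes and 127 and 109 FPKM in endothelial cells and at most 1.66 FPKM elsewhere (adjusted p = 2.91e-05). It was shared by the rule, yet higher in endothelial cells by 3.47 ± 0.24 on the log2 scale.

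Genes of the mural cells of vessels (pericytes and smooth muscle), which no group of the study represents, were among the shared higher genes. Of 10 mural markers tested, 2 passed, and 8 were higher by the mean contrast. Pdgfrb, the PDGF receptor of pericytes, read 28.2 and 20.7 FPKM in astrocytes, 12.4 and 16.8 FPKM in endothelial cells and at most 2.96 FPKM elsewhere (adjusted p = 1.08e-05). Notch3 read 32.6 and 35.6 FPKM in astrocytes, 4.02 and 4.80 FPKM in endothelial cells and at most 2.29 FPKM in a neuron library (adjusted p = 0.0185). The call of Notch3 was lost without the first neuron library (adjusted p = 0.211), without the first or second endothelial library (0.066 and 0.244), with a pseudocount of 0.1 (0.518), the common sum (0.434) and only the 7 types in the fit (0.0546). Notch3 was called higher in astrocytes, and Pdgfrb in neither type, with an astrocyte minus endothelial difference of 0.70 ± 0.18. The 12 mural markers summed to 71.4 to 76.2 FPKM in astrocytes, 341 to 449 FPKM in endothelial cells and 1.34 to 59.2 FPKM in the other 10. Most of the astrocyte sum came from Pdgfrb and Notch3, and no other mural marker lay above the other 10 libraries in both types. For Vtn, Rgs5, Tbx18 and Anpep an OPC library read above both astrocyte libraries, while for Acta2 and Cnn1 both astrocyte libraries read above both OPC libraries. The part of mural cells in the endothelial values was not tested.

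Markers of each type were examined in the libraries of the other. In these bulk samples fewer cells of a type and less RNA per cell cannot be told apart. The 12 endothelial markers summed to 37.8 to 40.5 FPKM in astrocytes, against 8391 to 8724 FPKM in endothelial cells and 9.18 to 64.3 FPKM in the other 10 libraries. The median marker in the astrocyte libraries stood at 0.676% and 0.593% of its endothelial level, against 0.0521% to 0.519% in the other 10. By this measure 6 of the 12 endothelial markers were shared and higher without overlap, and 0 passed the stricter test. The 12 astrocyte markers summed to 91.6 to 92.0 FPKM in endothelial cells, against 4418 to 5743 FPKM in astrocytes, and their median share in the endothelial libraries, 0.438% and 0.606%, lay below the 0.844% to 9.63% of the other 10. Of the 520 shared higher genes, 40 had a lower type under 5% of the other and 16 under 1%, and in all 16 the lower type was the astrocyte. The part of endothelial RNA in those astrocyte values was not tested. Of the 137 that passed, 2 lay under 5% and 0 under 1%. These were Egfl8, at 2.73% in astrocytes, and Rhoj, at 3.78%. Red cell markers summed to 6669 to 7856 FPKM in endothelial cells, 34.6 to 54.1 FPKM in astrocytes and up to 15430 FPKM in an OPC library.

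Between both types, 13 of the 137 genes were higher in astrocytes, 39 were higher in endothelial cells and 85 were called in neither direction. Over all genes tested, the same limits called 20.8% higher in astrocytes and 19.3% higher in endothelial cells. Without the first or second endothelial library the 13 became 7 or 8. In 75 of the 137 genes the lower type reached at least 50% of the higher one, and in 60 it lay between 5% and 50%. The genes most above in astrocytes were Notch3, Prdm16, Pdk4, Il17rd and Hyal1. Prdm16, a zinc-finger transcription factor, read 9.26 and 9.98 FPKM in astrocytes, 1.3 and 1.16 FPKM in endothelial cells and at most 0.604 FPKM elsewhere (adjusted p = 0.0123). Il17rd, an antagonist of FGF signalling, read 11.04 and 11.6 FPKM in astrocytes, 3.68 and 3.39 FPKM in endothelial cells and at most 2.00 FPKM elsewhere (adjusted p = 0.00618). Hyal1, a hyaluronidase, read 11.6 and 8.52 FPKM in astrocytes, 2.89 and 3.12 FPKM in endothelial cells and at most 1.31 FPKM elsewhere (adjusted p = 0.0104). All 3 depended on an endothelial library, with adjusted p of 0.199, 0.105 and 0.0675 without the first and, for Prdm16 and Hyal1, 0.0801 and 0.117 without the second. Without the first or second neuron library Prdm16 had adjusted p = 0.0509 and 0.085, and without the first MO library Hyal1 had 0.0897. Scaling to a common sum also ended the calls of Prdm16 (0.654) and Il17rd (0.177), median-of-ratios scaling that of Hyal1 (1.00), and a pseudocount of 0.1 those of Il17rd (0.0568) and Hyal1 (0.0867).

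The genes most above in endothelial cells were Egfl8, Rhoj, Fzd6, Ppic and Lama4. Ppic (cyclophilin C), a prolyl isomerase, read 13.8 and 13.3 FPKM in astrocytes and 222 and 226 FPKM in endothelial cells and at most 3.92 FPKM in an OPC library (adjusted p = 4.44e-05). It was thus well detected in astrocytes and higher in endothelial cells by 3.95 ± 0.18 on the log2 scale. Egfl8, a secreted protein with EGF-like repeats, read 1.48 and 1.52 FPKM in astrocytes and 49.7 and 60.2 FPKM in endothelial cells and at most 0.561 FPKM elsewhere (adjusted p = 0.0154). Its call was lost without the first or second astrocyte library (adjusted p = 0.0892 and 0.122), the second OPC library (0.141) or the first microglia library (0.0711), with a pseudocount of 0.1 (0.0606) and with median-of-ratios scaling (0.104).

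**Figure D3:**
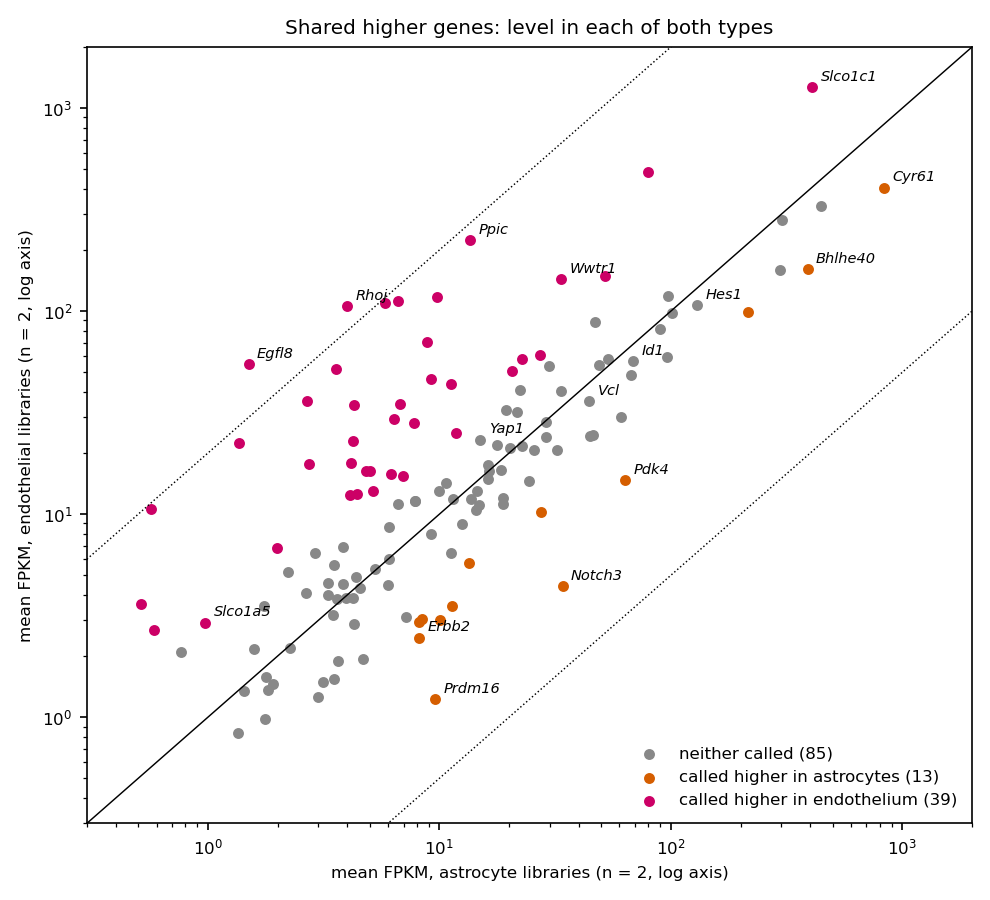
Mean FPKM of the 137 shared higher genes in astrocytes (x axis) and endothelial cells (y axis), n = 2 libraries each, both axes logarithmic, 1 point per gene. The solid line marks equal levels and the dotted lines mark 5% of the other type; 39 points are called higher in endothelial cells, 13 in astrocytes and 85 in neither.

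Several named genes passed by a small margin and lost the call in 8 or more of the alternatives. Cpt1a, the enzyme that lets long-chain fatty acids enter mitochondria, read 49.4 and 48.9 FPKM in astrocytes, 56.3 and 52.2 FPKM in endothelial cells and at most 22.5 FPKM elsewhere (adjusted p = 0.0311). Its p rose to between 0.0711 and 0.335 without either astrocyte, either OPC, the second microglia or either endothelial library. S1pr1, a receptor for sphingosine 1-phosphate, read 356 and 235 FPKM in astrocytes, 164 and 154 FPKM in endothelial cells and at most 42.9 FPKM in an OPC library (adjusted p = 0.0287). Its p rose to 0.334 without the second OPC library and to 0.189 and 0.15 without the first and second endothelial library. The GTPase Rhoj, the repressor Klf3, Cyp2d22 and Gstm1 were others of this kind, beside the lower genes Syn1 and Hdac11 described further on. Rhoj read 3.92 and 4.08 FPKM in astrocytes and 104 and 108 FPKM in endothelial cells and at most 1.94 FPKM elsewhere (adjusted p = 0.0477; 0.0608 to 0.363 without either astrocyte, OPC, NFO or endothelial library). Klf3 read 17.6 and 21.1 FPKM in astrocytes, 35.5 and 29.6 FPKM in endothelial cells and at most 11.1 FPKM elsewhere (adjusted p = 0.0363; 0.0504 to 0.442 without either astrocyte, microglia or endothelial library, the first neuron or the second OPC library). Cyp2d22 and Gstm1 belong to families of close copies, so reads may have been split among them. Cyp2d22 read 28.4 and 16.1 FPKM in astrocytes, 42.2 and 40.02 FPKM in endothelial cells and at most 9.12 FPKM elsewhere, with adjusted p = 0.0276, and 0.0519 to 0.424 without the first astrocyte, the second OPC or either endothelial library. Gstm1 read 42.6 and 46.9 FPKM in astrocytes, 25.8 and 22.7 FPKM in endothelial cells and at most 15.9 FPKM elsewhere, with adjusted p = 0.0469, and 0.0609 to 0.61 without any single astrocyte, neuron, NFO, microglia or endothelial library or the second OPC library.

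Immediate-early and stress genes, which cell dissociation is known to induce, were on average high in the same 4 libraries. Of 33 tested, 2 were shared and higher and 1 passed, while 24 were higher and 0 lower by the mean contrast, with a median of 2.19. Their sum ran from 8504 to 10400 FPKM in astrocytes, 7091 to 7407 FPKM in endothelial cells and 14530 to 18710 FPKM in microglia, against 353 to 2371 FPKM in the neuron and oligodendrocyte-lineage libraries and 2492 to 2540 FPKM in WC. Microglia thus exceeded both types, so this list was not apart from every other type. Klf6, an early-response zinc-finger factor, was the 1 that passed, at 249 and 352 FPKM in astrocytes, 294 and 271 FPKM in endothelial cells and at most 102 FPKM in a microglia library (adjusted p = 0.00541). Its p was 0.0681 without the second astrocyte library and 0.0571 without the first endothelial library. Cyr61 and Id1 are also genes of early response, and the part of dissociation in their levels was not tested. Of 29 interferon and MHC class I genes, 0 were shared, while 12 were higher by the mean contrast, and the interferon-induced kinase Eif2ak2, outside the list and named after its values were seen, passed at 4.22 to 4.75 FPKM in the 4 libraries against at most 1.10 FPKM elsewhere.

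The whole cortex libraries, which the rule did not use but the fit and the filter did, held most shared higher genes at a level between. Whole cortex is a mixture that includes these cell types, so a level between is no separate check of the set. All 3 WC libraries lay above all 10 other libraries for 105 of the 137 genes. They lay below all 4 astrocyte and endothelial libraries for 101 and exceeded all 4 for 0. The mean over WC was above the mean of the 5 other types for 136 genes. Among those 5, the type with the highest mean FPKM was OPC for 66 of the 137 genes, neurons for 36, microglia for 24, NFO for 7 and MO for 4. The median astrocyte marker stood at 9.63% and 5.48% of its astrocyte level in OPC and 3.33% and 5.45% in neurons. In NFO, MO and microglia it stood at 0.844% to 2.64%. The part of astrocyte RNA in the values of these types was not tested. In 38 of the 137, all 10 other libraries stood under 1 FPKM, so that such genes entered the test through the pair or WC. In 56 the lowest of the 4 libraries reached 10 FPKM.

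The 64 shared lower genes that passed included microtubule, vesicle and myelin genes. Their values in the libraries of neurons, the oligodendrocyte lineage and microglia all lay above both types. Their gap had a median of 1.04 and a range of 0.543 to 2.61, and in 27 of them all 4 astrocyte and endothelial libraries stood under 1 FPKM. Of the 5 other types, the one with the lowest mean FPKM was microglia for 30, neurons and OPC for 11 each, NFO for 7 and MO for 5. All 3 WC libraries lay above the 4 libraries for 64 of 64 genes and above all 10 others for 5. Between both types, 10 were higher in astrocytes, 2 in endothelial cells and 52 in neither. The count of 64 moved with the settings, to 108 with median-of-ratios scaling and 33 with the common sum. It fell to 29 and 41 without the first and second astrocyte library and to 35 and 34 without the first and second endothelial library. The median of 12 neuron markers stood at 1.37% and 2.07% of its neuron level in astrocytes and 1.41% and 1.36% in endothelial cells. It stood at 1.82% and 2.06% in microglia, 2.63% and 3.14% in NFO, 3.26% and 8.43% in MO and 14% and 13% in OPC. The part of neuronal RNA in the values of these other types was not tested.

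Tppp, a protein that bundles microtubules in oligodendrocytes, read 0.173 and 0.260 FPKM in astrocytes and 0.233 and 0.352 FPKM in endothelial cells. The other 10 ran from 7.27 FPKM in a microglia library through a median of 15.7 to 235 FPKM in an NFO library (log2 difference -4.77 ± 0.14, adjusted p = 5.09e-05). Ppp2r2c, a regulatory subunit of protein phosphatase 2A, read 0.323 and 0.634 FPKM in astrocytes, 0.484 and 0.523 FPKM in endothelial cells and 8.96 to 113 FPKM elsewhere (adjusted p = 0.000117). Nrsn1, a vesicle membrane protein, read 0.246 and 0.240 FPKM in astrocytes, 0.549 and 0.379 FPKM in endothelial cells and 7.91 to 38.4 FPKM elsewhere (adjusted p = 0.000508). Each of these 3 genes was thus under 1 FPKM in all 4 libraries and above 7 FPKM in all 10 others.

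Kif5a, a kinesin heavy chain of axonal transport, read 1.70 and 1.96 FPKM in astrocytes, 0.414 and 0.256 FPKM in endothelial cells and 13.6 to 198 FPKM elsewhere (log2 difference -4.65 ± 0.20, adjusted p = 0.00113). It was the 1 gene that passed of 41 microtubule and motor genes, of which 4 were shared and lower and 21 were lower and 0 higher by the mean contrast, with a median of -1.02. Under scaling to a common sum, 1 of the 41 was higher by the mean contrast. Eef1a2, the elongation factor of neurons and muscle, read 0.642 and 0.487 FPKM in astrocytes, 1.96 and 1.85 FPKM in endothelial cells and 12.9 to 191 FPKM elsewhere (adjusted p = 0.00379). The receptor phosphatase Ptpro read 0.221 and 0.404 FPKM in astrocytes, 0.207 and 0.1 FPKM in endothelial cells and 5.23 to 54.0 FPKM elsewhere (adjusted p = 3.23e-05). Rph3a (rabphilin), a Rab3 effector on synaptic vesicles, read 0.184 and 0.121 FPKM in astrocytes, 0.291 and 0.271 FPKM in endothelial cells and 3.87 to 21.2 FPKM elsewhere (adjusted p = 0.000612). Jph3, which ties the endoplasmic reticulum to the plasma membrane, read 0.106 and 0.107 FPKM in astrocytes, 0.183 and 0.137 FPKM in endothelial cells and 3.38 to 22.8 FPKM elsewhere (adjusted p = 0.00242). For Jph3 and Rph3a a microglia library was the lowest of the 10.

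Of 27 synaptic vesicle and release genes, 6 were shared and lower and 1 passed, and 18 were lower and 0 higher by the mean contrast, with a median of -1.51. Syn1 (synapsin) read 1.62 and 2.23 FPKM in astrocytes, 0.915 and 0.630 FPKM in endothelial cells and 5.30 to 75.2 FPKM elsewhere (adjusted p = 0.0233). Hdac11, a histone deacetylase, read 5.41 and 6.28 FPKM in astrocytes, 1.17 and 0.934 FPKM in endothelial cells and 11.3 to 61.8 FPKM elsewhere (adjusted p = 0.0307). It was the 1 that passed of 57 chromatin and RNA-processing genes, of which 2 were shared and lower. Over all genes tested, 3.13% were shared and lower and 0.457% passed as lower. The calls of Syn1 and Hdac11 were weak. That of Syn1 was lost, with adjusted p of 0.0515 to 0.345, without either astrocyte, NFO or endothelial library or the second microglia library. That of Hdac11 was lost, with adjusted p of 0.0505 to 0.444, without either astrocyte, neuron or endothelial library, the second MO or the second microglia library. Scaling to a common sum ended both (adjusted p = 1.00). In the lists of housekeeping genes, 2 of 78 ribosomal proteins, 1 of 73 respiratory chain subunits and 0 of 38 proteasome subunits were shared and lower, and of 51 Rab GTPases 1 was shared and higher and 3 were lower. None of these passed the stricter test.

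**Figure D4:**
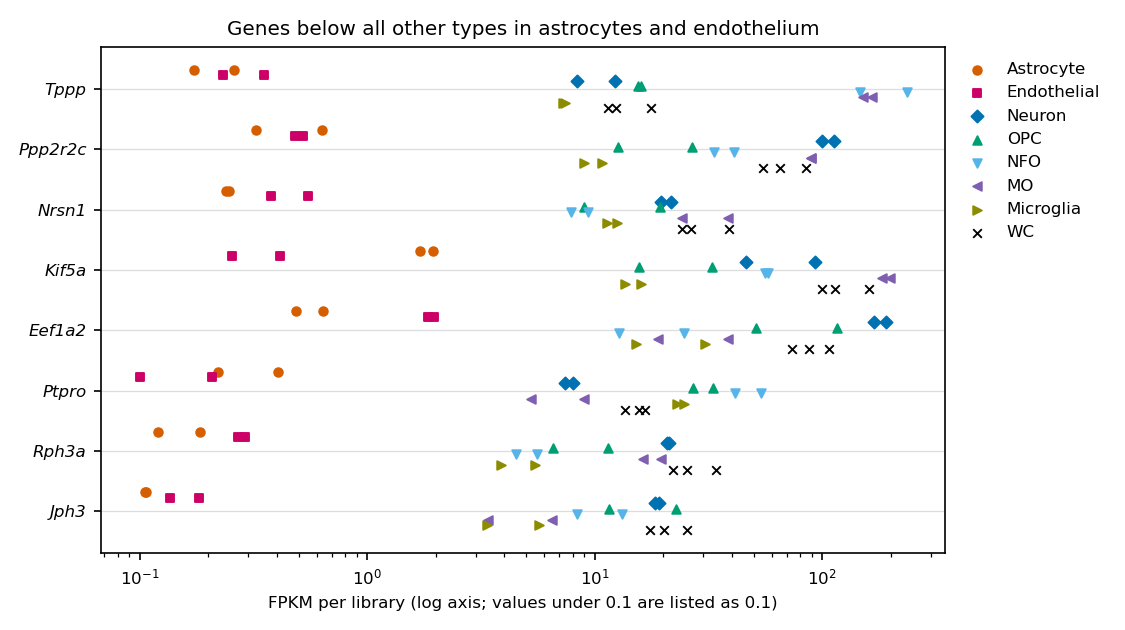
FPKM per library, on a log axis, of the 8 shared lower genes with the largest gap, 1 marker per library. The 4 astrocyte and endothelial markers lie under 2 FPKM in every row and to the left of every other purified library.

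Isoform shares are a readout the rule did not use. Between astrocytes and endothelial cells, diffSplice of limma called 231 of 1062 genes tested (21.8%), at adjusted p under 0.05 and a share difference of at least 20 points. In both isoform comparisons the adjusted p belongs to the gene, with the tests of its isoforms combined by the Simes method. The isoform named is the one with the largest share difference and has no p of its own here. Of 83 shared genes that could be tested, 18 were called. Of the 17 among them that passed the stricter test, 5 were called. For Gjc1, the isoform NM_001159383 took 23.6% and 11.7% of the gene's FPKM in astrocytes and 68.0% and 75.3% in endothelial cells (difference -54.01 points, adjusted p = 1.54e-08). For Ghr, the growth hormone receptor, NM_001048178 took 10.8% and 16.3% in astrocytes and 59.1% and 59.3% in endothelial cells (adjusted p = 9.31e-09). Bcl2, which protects cells from death, went the other way, with NM_009741 at 77.8% and 79.4% in astrocytes and 38.6% and 39.3% in endothelial cells (adjusted p = 5.78e-06). Both types thus shared these genes but divided their transcripts differently. Nedd9, a scaffold of focal adhesions, used NM_001111324 for 0.422% and 0.293% in astrocytes and 26.8% and 31.6% in endothelial cells (adjusted p = 2.68e-09). Hopx used NM_001159901 for 12.1% and 13.5% in astrocytes and 39.0% and 32.8% in endothelial cells (adjusted p = 0.00272).

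Against the mean of the 5 other types, 67 of 546 genes tested were called (12.3%). Of 33 shared genes that could be tested, 6 were called. Of the 3 among them that passed the stricter test, 2 were called. Pde4b, a cyclic AMP phosphodiesterase and a shared higher gene, read 72.5 and 108 FPKM in astrocytes, 81.7 and 81.1 FPKM in endothelial cells and at most 39.2 FPKM elsewhere. Its isoform NM_019840 took 0.790% and 0.846% in astrocytes and 0.122% and 0.123% in endothelial cells. In neurons it took 19.3% and 28.4%, in OPC 48.0% and 42.0%, in NFO 72.2% and 64.1% and in MO 68.4% and 77.8%, while microglia resembled the pair at 0.957% and 1.62% (difference -41.81 points, adjusted p = 4.5e-21). For the shared lower gene Bin1, a membrane-curving protein, NM_009668 took 4.31% and 4.94% in astrocytes, 1.45% and 3.98% in endothelial cells and 97.4% and 97.6% in neurons (difference -22.96 points, adjusted p = 7.78e-06). The remaining types held 10.5% to 13.2% of Bin1 in this isoform in the oligodendrocyte lineage and 0.824% and 0.874% in microglia, so that neurons stood apart from all other types. A gene sum of at least 10 FPKM in place of 5 was also tried. The calls among shared genes that passed the stricter test were then 3 between both types and 0 against the 5 others.

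**Figure D5:**
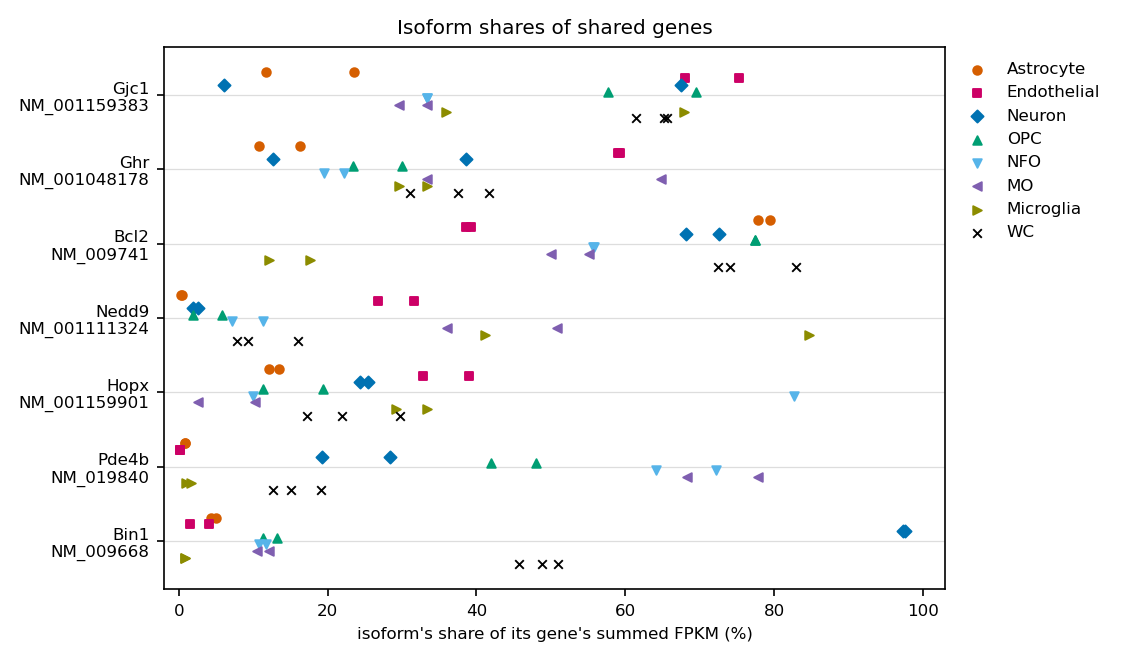
Share of 1 isoform in its gene's summed FPKM, in percent, 1 marker per library. Shown are the 7 shared genes that passed the stricter test and were called for isoform use. The first 5 rows separate astrocytes from endothelial cells, and the Pde4b row separates both types and microglia from neurons and the oligodendrocyte lineage.

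The limit of the rule runs through a dense range of genes, so that those just inside and just outside it differ little. Just inside on the higher side lay Lta4h, Lrig1 and Zfp800, with gaps of 0.000667, 0.000755 and 0.00117 on the log2(FPKM + 1) scale, and just outside lay Tfpi2, Sesn3 and Serpina1b, with overlaps of -0.00217, -0.0038 and -0.00406. On the lower side, Cbara1, Gprin1 and Pigz lay inside by 0.00099, 0.0018 and 0.00241, and Hapln2, Atp10b and Grip2 lay outside by -6.03e-05, -0.000264 and -0.000821. Genes whose nearest libraries were tied at 0.1 FPKM, and symbols of the Rik, Gm, LOC and BC kinds, were passed over here.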

How the data were processed

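The authors deposited FPKM for each gene symbol and each RefSeq isoform. The submitters' processing notes name build mm9, Cufflinks 1.3.0, TopHat 1.3.3, Bowtie 0.12.7 and CASAVA, and the strand setting is not given in the sources used here. Whole reads could not be recovered from the FPKM, so depth is unknown and no counting interval is given. Of 28408 isoforms, 1 was left out. Replicates of a type correlated at r = 0.977 (OPC) to 0.998 (endothelial cells) across genes, and no pair of libraries was a copy. The sum of FPKM ran from 205621 to 389838 over libraries.

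Genes with at least 1 FPKM in at least 2 of 17 libraries were fitted on log2(FPKM + 1) with limma 3.58.1 in R 4.3.3, with 1 mean for each of the 8 groups and a prior variance that follows the mean. The fold changes understate those of low genes. Adjusted p-values are Benjamini-Hochberg over 14011 genes, with a threshold of 0.05, and for the shared genes rest on the largest of 10 one-sided p-values. The rule and this test read the same values. Isoform tests took genes of at least 5 FPKM and isoforms of at least 5% share, on isoform log2 values. Genes named are the 14 higher and 8 lower with the largest gap, up to 4 per function list, and the 5 most above in each type, with other names given as such or chosen after their values were seen. Symbols of the Rik, Gm, LOC and BC kinds were passed over in these choices. Members and lists were chosen with earlier results of these data known. By RefSeq transcript or, failing that, by symbol, 13967 of the genes tested matched RefSeq and 11051 had a promoter in the table.

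In simulated data a log2 change of 1 passed for 34% of 50 genes and changes of 2, 3 and 4 for 100%. Of 12588 genes run, 0 unchanged genes passed and 19 unchanged genes had no overlap. All libraries of a simulated gene were drawn around a common mean, apart from the change added to astrocytes and endothelial cells. The simulated other types thus did not differ among themselves, unlike those of the real libraries. How often the test passes or errs for genes whose other types differ was not tested. Alternatives were another pseudocount, filters, scalings, a replicate block, a constant prior, only the 7 types, a wider gap or log2 difference, other isoform limits, a shorter promoter window and each library left out. Python 3.11.15, numpy 2.4.6, pandas 2.3.3 and matplotlib 3.10.9 were used for tables and figures.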

Additional observations from a re-analysis of the deposited data

How the results depend on the processing

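Of 65 named genes, 46 kept their call in every alternative, 19 lost it in at least 1, and 0 reversed. The losses were most frequent without the first or second endothelial library (14 each), with a pseudocount of 0.1 (13) and with only the 7 types in the fit (10). These 65 are the genes named by the stated rule. Genes named beside it, such as Amotl1, Jub, Lpar4, Pde4b, Bin1, Abca1, Stard4, Pon2, Tlr3, Rora, Mbp, Pdgfa, Gpd1 and Gpd2, were not followed through the alternatives. Whether their calls would hold is thus unknown. The scaling moved the median log2 difference of all genes from 0.10 to -0.06 with median-of-ratios scaling and to 0.18 with a common sum.

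With a gap of at least 1, 71 higher and 37 lower genes passed, and 71 and 45 had no overlap. The passed lower count was 115 with a pseudocount of 0.1, 108 with median-of-ratios scaling, 33 with the common sum and 41 with only the 7 types. Without overlap, 833 genes were lower with median-of-ratios scaling. Leaving out each library gave 99 to 143 passed higher genes, 29 to 81 passed lower, 522 to 694 without overlap higher and 439 to 514 lower. The mean contrast gave 1965 to 2170 higher and 1556 to 1662 lower, 3193 higher with a pseudocount of 0.1, and 543 and 488 with a log2 difference of at least 2. Of the passed higher genes, 20 were above in astrocytes with the common sum, 3 with a log2 difference of at least 2, and 7 to 16 with a library left out. The endothelial count was 19 with a log2 difference of at least 2 and 33 to 42 with a library left out. Isoform calls among the shared genes that passed were 3 and 0 with a gene sum of at least 10 FPKM. With at least 10 points there were 8 between both types. The shorter promoter window gave 7.6% for TEAD and 6.1% for the NFI site TTGGCA, against 5.0% and 4.8% over genes tested. The cause of these shifts was not tested.

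No label says that a replicate number marks a shared animal, litter, batch or day, so the numbers were not taken as pairs. Correlations of the difference between replicates exceeded 0.1 in 6 of 21 pairs of types. Those 6 were all the pairs among endothelial cells, OPC, NFO and microglia (0.15 to 0.73), and the 15 others ran from -0.25 to 0.06. A replicate block gave 129 higher and 69 lower genes that passed and left the mean contrast at 2079 and 1606. It ended 5 named calls, those of S1pr1 (adjusted p = 0.0703), Rhoj (0.0663), Klf3 (0.0659), Cyp2d22 (0.0693) and Gstm1 (0.101).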

Other observations

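Other shared higher genes that passed, named after their values were seen, belonged to lipid, sterol and innate immune functions. Abca1, the exporter of cholesterol to lipoproteins, read 66.8 and 67.7 FPKM in astrocytes, 50.2 and 46.3 FPKM in endothelial cells and at most 19.8 FPKM in an OPC library (adjusted p = 0.00735). Stard4, a carrier of cholesterol in the cytosol, read 23.5 and 34.3 FPKM in astrocytes, 27.9 and 29.2 FPKM in endothelial cells and at most 8.77 FPKM elsewhere (adjusted p = 0.00401). Pon2, a paraoxonase family lactonase, read 106 and 97.2 FPKM in astrocytes, 96.2 and 100.2 FPKM in endothelial cells and at most 34.0 FPKM elsewhere (adjusted p = 0.015). All 3 were thus near even in both types. Tlr3, the receptor for double-stranded RNA, read 16.5 and 8.66 FPKM in astrocytes, 9.04 and 8.81 FPKM in endothelial cells and at most 2.85 FPKM elsewhere (adjusted p = 0.0129). Rora, a nuclear receptor, read 9.44 and 8.99 FPKM in astrocytes, 7.79 and 8.14 FPKM in endothelial cells and at most 2.67 FPKM elsewhere (adjusted p = 0.000325).

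The shared lower genes reached beyond neuronal genes. Mbp, the myelin basic protein, read 2.45 and 0.951 FPKM in astrocytes and 0.852 and 0.501 FPKM in endothelial cells, against a lowest value of 9.80 FPKM in a neuron library among the other 10 (adjusted p = 0.00242). Mbp reached 114200 FPKM in an MO library, and the part of carried-over myelin RNA in the values of the other libraries was not tested. Pdgfa, a PDGF ligand, read 1.43 and 2.43 FPKM in astrocytes and 1.94 and 1.44 FPKM in endothelial cells against 6.54 to 38.2 FPKM elsewhere (adjusted p = 0.000801). Gpd1 read 2.83 and 1.42 FPKM in astrocytes and 0.452 and 0.430 FPKM in endothelial cells against 7.19 to 105 FPKM elsewhere (adjusted p = 0.00707). Its mitochondrial partner in the glycerol phosphate shuttle, Gpd2, was a shared higher gene, at 22.3 and 21.1 FPKM in astrocytes and 33.0 and 30.6 FPKM in endothelial cells against at most 9.64 FPKM elsewhere (adjusted p = 0.000802). Both enzymes of the shuttle thus passed, in opposite directions.

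The same count was made for a pair of pairings that each share a type with this one. Astrocytes and OPC had 684 genes above and 39 below the other 10 libraries, of which 201 and 4 passed. Microglia and endothelial cells had 908 above and 1024 below, of which 541 and 426 passed. These counts share libraries with those of astrocytes and endothelial cells and were not tested against them.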
